A study of Hordeum vulgare with 18 samples.

Results

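Line KD-CKX1 17_10 was compared with line KD-CKX1 5.8 at stage 49 of the BBCH scale, in whole spikes of the cultivar Golden Promise of barley (Hordeum vulgare). These are independent transgenic lines with a silenced HvCKX1 gene, called line 17_10 and line 5.8 here. The 6 libraries, 3 of each line, were chosen by their titles from the 18 of the series. The other 12 are 3 libraries of an azygous control line at stage 49, and 3 of each line and of the control at stage 59. Azygous plants lack the transgene. All plants stood in field plots sown at 200 plants per square metre, with nitrogen fertilizer, the herbicide Mustang Forte and the fungicides Acanto and Capalo. The sources used here do not give the silencing construct, its promoter or the number of plants behind a library. The series description calls the libraries of a group biological replicates.

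Cytokinins are plant hormones that promote cell division and delay senescence. Cytokinin oxidase/dehydrogenases, the enzyme family to which HvCKX1 belongs, degrade them irreversibly by cleaving their side chain. In rice, a gene of this family is known to influence the number of grains on the panicle. At stage 49 the first awns are visible, and stage 59 is the end of heading. The comparison of the lines asks where plants with the same silenced gene differ from each other.

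Features carry identifiers of the MLOC or EPlHVUG type. Of the 26066 in the table, 0 matched the 58438 genes of the RefSeq reference table, so gene functions are not described. The level of HvCKX1 and of spike marker genes could not be looked up for the same reason, and the labels were not checked against them.

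The 6 libraries held between 49209514 and 85230181 recovered reads. Over the 19484 features tested, log2 levels correlated between 0.978 and 0.987 within line 17_10, between 0.896 and 0.983 within line 5.8, and between 0.866 and 0.976 across the lines. Replicate 2 of line 5.8 stood apart. It lay at -155 on the first principal component of the 6 libraries, which held 68.3% of the variance, and the 5 others lay between -0.8 and 52.1. It differed at least 4-fold from the mean of the 2 other libraries of its line in 1940 features, where the 5 others gave between 70 and 685. Several of the counts below are therefore also given without this library, and others are not.

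Of the 19484 features, 87 differed between the lines, which is 0.447% (limma on log2(normalized count + 1), Benjamini-Hochberg adjusted p below 0.05). A feature called here had a mean that was lower in line 17_10 in 59 cases (0.303% of those tested) and higher in 28 (0.144%). The libraries of the lines did not overlap in any of the 87, and in 24.9% of all features tested they did not overlap either. The folds were large among the lower features, with a median log2 fold change of -4.75, or -4.39 with the 15 features that had 0 reads in line 17_10 set at their lower bound. The median was 1.92 among the higher features and 0.01 over all features tested. A change of at least 4-fold was found in 50 of the 59 lower features and in 13 of the 28 higher ones. The lower features were of modest level, with a median of 208 normalized counts in the higher line, against 377 for the higher features and 1010 over all features tested.

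Leaving out replicate 2 of line 5.8 gave 80 features, 27 of them higher and 53 lower, with 72 of the 87 among them. Without replicate 3 of line 5.8 it was 127 (62 higher, 65 lower), and the higher features were 18 and 17 without replicates 2 and 3 of line 17_10. A fit of these 6 libraries alone called 42 features (8 higher, 34 lower), and DESeq2 on recovered reads called 353 (131 higher, 222 lower).

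**Figure D1:**
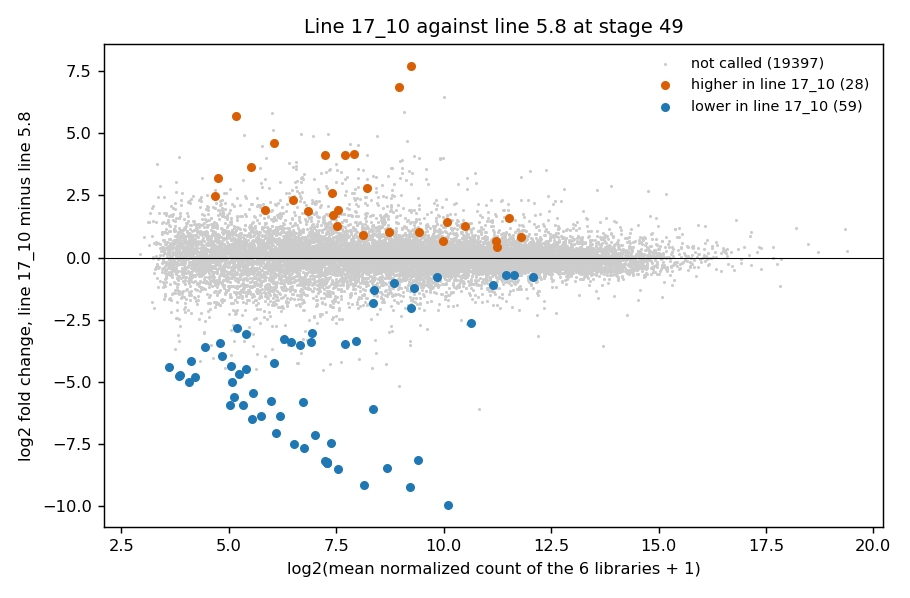
Each point is 1 of 19484 features, placed by its mean level over the 6 libraries (x axis, log2 of normalized count + 1) and by its log2 fold change of line 17_10 over line 5.8 at stage 49 (y axis). The 59 called features that were lower in line 17_10 (blue) reach -9.96, and the 28 higher ones (orange) reach 7.72.

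The most distinct group was nearly silent in line 17_10. On/off features were taken as called features with a mean below 10 normalized counts in one line and at least 50 in the other, and 38 of the 87 were of this kind, 33 of them low in line 17_10 and 5 low in line 5.8. Without replicate 2 of line 5.8 there were 33, with 29 and 4. By the level of the control at stage 49, the 33 split into 13 with a control mean of at least 50, 19 with a control mean below 10 and 1 in between. Without replicate 2 of line 5.8 the first pair of numbers was 13 and 16.

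In the first of these groups, line 5.8 and the control both expressed the feature and line 17_10 did not. MLOC_312 had 0.9642, 0.8449 and 1.913 normalized counts in replicates 1 to 3 of line 17_10. It had 2082, 2500 and 2003 in line 5.8 and 2326, 2217 and 2389 in the control. The means were 1.241 ± 0.5853 and 2195 ± 267 in the lines (SD, n = 3), a ratio of 1770 (log2 fold change -9.96, SE 0.34, limma adjusted p = 3.1e-10), and line 5.8 stood at the level of the control (log2 difference -0.08, limma adjusted p = 0.91).

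MLOC_52240 had 0 reads in all 3 libraries of line 17_10. It had 618.9, 558.5 and 530.6 normalized counts in line 5.8 and 445.8, 633.9 and 505.4 in the control. With a floor of 3 reads per library for line 17_10, line 5.8 was at least 206-fold higher (limma adjusted p = 6.3e-10). MLOC_47391 stood at 0.9642, 2.535 and 0 in line 17_10 and at 1482, 1037 and 1013 in line 5.8 (ratio of means 1010, log2 fold change -9.25, SE 0.51, limma adjusted p = 3.8e-08). Its control libraries lay between 757 and 920.2, so every library of line 5.8 lay above them.

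MLOC_46817, MLOC_52761 and MLOC_49609 also had 0 reads in line 17_10. Their means in line 5.8 were 308.2 ± 20.95, 308.8 ± 53.8 and 307.6 ± 85.45 normalized counts (SD, n = 3), and in the control 272, 195.6 and 257.6. The lower bounds of the fold between the lines were 111, 112 and 111 (limma adjusted p = 2.6e-09, 7.4e-10 and 4e-09). The 7 other members were MLOC_31095, MLOC_490, MLOC_27023, MLOC_26287, MLOC_27949, MLOC_40205 and MLOC_12283. Of the 13, 8 had 0 reads in line 17_10 and none had more than 6 reads over its 3 libraries. The mean of the control was within 2-fold of that of line 5.8 in 12, and the ratio of control to line 5.8 had a median of 0.823. The exception was MLOC_27023, with 104.2 normalized counts in the control and 330.2 in line 5.8.

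The second group was expressed in line 5.8 and nearly silent in both line 17_10 and the control. MLOC_497 stood at 6.749, 5.914 and 0.9565 normalized counts in line 17_10 and at 2.755, 3.918 and 2.418 in the control. In line 5.8 it reached 1324, 1395 and 1332, a ratio of 297 between the lines (log2 fold change -8.16, SE 0.71, limma adjusted p = 8.4e-06). The spread within line 5.8 was small, at an SD of 39.15 on a mean of 1350.

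MLOC_35134 and MLOC_75680 had 0 reads in all 3 libraries of line 17_10 and in all 3 of the control at stage 49. MLOC_35134 stood at 293.9, 499.3 and 326.3 normalized counts in line 5.8, at least 135-fold higher than in line 17_10 (limma adjusted p = 4e-09). MLOC_75680 stood at 212.9, 285.4 and 138.3, at least 76.7-fold higher (limma adjusted p = 1.2e-07). MLOC_28102 had 706, 1017 and 721.5 in line 5.8, against 1.928, 0 and 2.87 in line 17_10 and a control mean of 4.211 (ratio between the lines 509, log2 fold change -8.48, SE 0.57, limma adjusted p = 4.3e-07).

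The 15 other members had means between 53 and 646.6 normalized counts in line 5.8. They were MLOC_31213, MLOC_81998, MLOC_68464, MLOC_24563, MLOC_30349, MLOC_71615, MLOC_80629, MLOC_55014, MLOC_33151, MLOC_45211, MLOC_80344, MLOC_35341, MLOC_24777, MLOC_2407 and MLOC_31683. The highest control mean among the 19 was 9.097, and the median ratio of control to line 5.8 was 0.00939. In replicate 2 of line 5.8, the library that stood apart, MLOC_497, MLOC_35134, MLOC_28102 and MLOC_75680 were at their highest, and the other 2 libraries of the line were also far above every library of line 17_10.

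**Figure D2:**
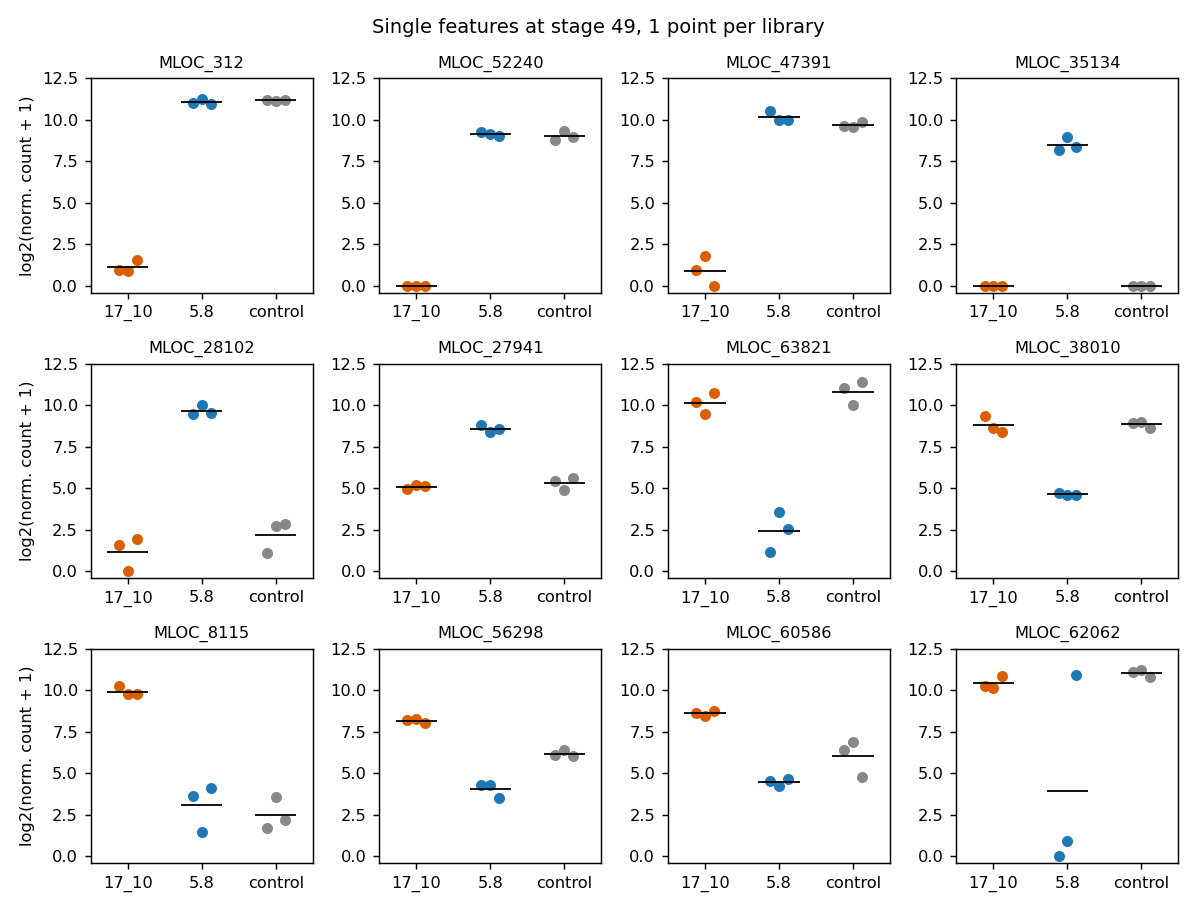
Levels of 12 features at stage 49 in the 3 libraries of line 17_10 (orange), line 5.8 (blue) and the control (grey), as log2(normalized count + 1), with a bar at the mean. MLOC_312, MLOC_52240 and MLOC_47391 are low in line 17_10 alone, MLOC_35134, MLOC_28102 and MLOC_27941 are high in line 5.8 alone, MLOC_63821 and MLOC_38010 are low in line 5.8 alone, and MLOC_62062 is split within line 5.8.

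The remaining 26 features that were lower in line 17_10 were not on/off. In 8 of them the mean in line 5.8 lay between 22.26 and 49.15 normalized counts and that in line 17_10 was at most 4.014, and the control was below 10 in 7. The exception was MLOC_48096, with 0 reads in line 17_10, 26.49 in line 5.8 and 73.4 in the control. The other 18 had log2 fold changes between -3.5 and -0.7 and were expressed in both lines.

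Several of these 18, named here after their values were seen, had a low and even level in line 17_10 and in the control. MLOC_27941 stood at 29.89, 35.48 and 34.44 normalized counts in line 17_10, at 41.88, 28.21 and 47.16 in the control and at 448.3, 327.8 and 379.7 in line 5.8 (limma adjusted p = 1e-06, log2 fold change -3.49 with an SE of 0.25). MLOC_11323 had 44.61 ± 14.99 in line 17_10, 54.58 ± 7.136 in the control and 448.6 ± 16.97 in line 5.8 (SD, n = 3), and MLOC_1504 had 26.11 ± 9.248, 35.95 ± 2.889 and 216 ± 8.299. The ratios between the lines were 10.1 and 8.27 (limma adjusted p = 5.5e-06 and 1.5e-05). In MLOC_67381 the odd one was line 17_10, at 497.5, 399.6 and 425.7, against 2326, 2716 and 3115 in line 5.8 and 2248, 2332 and 1908 in the control (ratio 6.17, limma adjusted p = 0.0014).

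Over all 59 lower features, the log2 control mean lay within 1 of line 17_10 alone in 33, of line 5.8 alone in 14, of both in 6 and of neither in 6. These are descriptions of levels at stage 49, made without a test. By limma, line 5.8 differed from the control at stage 49 in 83 of 19505 features (0.426%) and line 17_10 in 42 of 19369 (0.217%), and both comparisons share their control libraries. These counts depend on the fit: with only the compared groups in it they were 21 and 23. Without replicate 2 of the control the count of line 5.8 was 756 and that of line 17_10 was 42, and without replicate 2 of line 5.8 they were 77 and 42.

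The 28 features that were higher in line 17_10 fell into a smaller range. MLOC_63821 led them, at 1168, 713.1 and 1719 normalized counts in line 17_10 and 1.245, 10.6 and 4.913 in line 5.8 (ratio of means 215, log2 fold change 7.72, SE 0.51, limma adjusted p = 3.7e-07). Its control libraries held 2061, 1019 and 2725, so line 5.8 was the low one (log2 difference from the control -8.38, limma adjusted p = 3.1e-07). MLOC_38010 had the same layout. It stood at 24.9, 22.97 and 23.16 in line 5.8, at 636.4, 394.5 and 336.7 in line 17_10 and at 489.9, 509.4 and 396.6 in the control (ratio of the lines 19.3, log2 fold change 4.16, SE 0.32, limma adjusted p = 2e-06).

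MLOC_8115 was high in line 17_10 alone. Its values were 1203, 875.3 and 861.8 normalized counts there, 11.21, 1.767 and 16.14 in line 5.8 and 2.204, 10.97 and 3.627 in the control (ratio between the lines 101, log2 fold change 6.86, SE 0.69, limma adjusted p = 4.3e-05). MLOC_67727 had 81.96, 99.69 and 26.78 in line 17_10 and 1 read in all of line 5.8. The ratio of the means was 297, with a 95% exact Poisson interval of 53.3 to 11700 that covers the counting error of that 1 read alone (limma adjusted p = 0.0048).

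The mean of the control lay between those of the lines, or equalled one of them, in 16 of the 28 higher features and in 43 of the 59 lower ones. The lower ones include ties such as MLOC_35134 and MLOC_75680, with a mean of 0 in both line 17_10 and the control. Where both were near 0, the order rests on few reads. MLOC_56298, MLOC_56299 and MLOC_60586 are examples of a control clearly in between, from the higher features. MLOC_56298 stood at 286.6 ± 19.78 normalized counts in line 17_10, 71.2 ± 9.726 in the control and 15.92 ± 4.671 in line 5.8 (SD, n = 3; limma adjusted p between the lines = 2.7e-05). MLOC_56299 stood at 125.9 ± 56.22, 16.17 ± 9.288 and 3.948 ± 1.261 in the same order (limma adjusted p = 0.00036). These were the 1 pair of consecutive identifiers among the 87, and the sources used here do not say whether they are neighbours or share reads. MLOC_60586 stood at 391.4 ± 41.62, 75.15 ± 45.48 and 21.55 ± 3.526 (limma adjusted p = 0.00029). In each of the 3 features no library of line 17_10 was as low as any control library, and no control library was as low as any of line 5.8.

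MLOC_16596 was low in line 5.8, at 12.45, 1.767 and 6.316 normalized counts, against 93.53, 95.47 and 57.39 in line 17_10 (limma adjusted p = 0.0056, log2 fold change 3.64 with an SE of 0.58). The control was uneven at 51.24, 34.48 and 204.3. The call of MLOC_16596 was lost with only the compared groups in the fit (limma adjusted p = 0.24). It was also lost in the fit of the libraries of 1 stage (limma adjusted p = 0.24). Over the 28 higher features, the log2 control mean lay within 1 of line 17_10 alone in 12, of line 5.8 alone in 5, of both in 5 and of neither in 6.

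The 4 called features with the highest means over both lines had ratios between 1.63 and 3.15. MLOC_6988 had the highest mean of the 87, at 3417, 3242 and 2824 normalized counts in line 17_10 and 5765, 5536 and 5186 in line 5.8 (ratio 1.74, limma adjusted p = 0.0057), and its call was lost without replicate 3 of line 17_10 (adjusted p by limma then 0.052). MLOC_56785 stood at 2410 ± 91.26 and 3930 ± 196.3 (SD, n = 3; ratio 1.63, limma adjusted p = 0.021), a call that was lost without any one library other than replicate 3 of line 5.8. MLOC_66152 stood at 4578 ± 568.3 and 2557 ± 283.5 (ratio 1.79), with an adjusted p by limma of 0.049. The call of MLOC_66152 was lost without any one of the 6 libraries. MLOC_18441 had 2166, 5659 and 5652 in line 17_10 and 874.1, 1507 and 1899 in line 5.8 (ratio 3.15, limma adjusted p = 0.037). Its control libraries, between 4260 and 5444, were above all of line 5.8, and the call was lost without any one of 4 of the 6 libraries, namely replicates 2 and 3 of line 17_10 and replicates 1 and 2 of line 5.8. None of these 4 features was called in the fit of the 6 libraries alone, with adjusted p by limma between 0.068 and 0.44.

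The smallest fold called was that of MLOC_5547, at 2675, 2837 and 2860 normalized counts in line 17_10 and 2083, 2028 and 2094 in line 5.8 (limma adjusted p = 0.0056, log2 fold change 0.43 with an SE of 0.07). Without replicate 3 of line 17_10 its adjusted p by limma was 0.052. MLOC_64708 and MLOC_13987 were the next smallest, with log2 fold changes of 0.66 and 0.68 (limma adjusted p = 0.0053 and 0.0049). In the fit of the 6 libraries alone all 3 of these calls were lost, with adjusted p by limma of 0.27 for MLOC_5547, 0.27 for MLOC_64708 and 0.15 for MLOC_13987. With the 9 libraries of stage 49, those of MLOC_5547 and MLOC_64708 were lost (0.15 and 0.13). In MLOC_64708 line 5.8 was below the control (785.5 against 1165), and in MLOC_13987 line 17_10 was above it (2922 against 1406).

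For most features the data bound the difference. The 95% interval of the log2 fold change lay within -1 and 1, which is 2-fold either way, in 11734 features, or 60.2% of those tested. It lay there in 12808 without replicate 2 of line 5.8. The median SE was 0.24, and the fitted change was below 2-fold in 89.7%.

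Large fold changes were often not called. Of 435 features with a fold of at least 4, which is 2.23% of those tested, 63 were called and 372 were not. In 289 of those 372, replicate 2 of line 5.8 was the library farthest from the median of the 6. Levels that ran from below 1 to at least 50 normalized counts among the 3 libraries of a group were found in 68 features in line 5.8, 4 in line 17_10 and 9 in the control.

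By the difference of mean log2 levels, the largest change without a call was in MLOC_62062. It had 0 and 0.8836 normalized counts in replicates 1 and 2 of line 5.8 and 1953 in replicate 3. In line 17_10 it had 1226, 1125 and 1872 and in the control 2180, 2406 and 1810 (log2 fold change 6.47, SE 1.93, limma adjusted p = 0.23). The ratio of the means was 2.16, and edgeR gave a log2 fold change of 1.11 where it gave -7.06 for MLOC_68089 and 3.76 for MLOC_57346. Without replicate 3 of line 5.8 the log2 fold change was 9.97 (limma adjusted p = 2.8e-06). Replicate 3 is the library that differs in this feature, so leaving it out all but fixes that outcome and is no separate test. At stage 59, separate libraries of line 5.8 held 0.6758, 8.645 and 0, against 111.7, 334.9 and 143.6 in line 17_10. That difference was not called either (log2 fold change 6.12, SE 1.92, limma adjusted p = 0.29). MLOC_68089 stood at 27.39, 5607 and 5174 in line 5.8, at 72.32, 5.069 and 4.783 in line 17_10 and at 6.061, 5122 and 9.673 in the control, so 2 libraries of line 5.8 and 1 of the control were high (limma adjusted p = 0.28, DESeq2 adjusted p = 0.012). MLOC_57346 had 26.15, 0 and 193.7 in line 5.8 and 878.4, 1000 and 1145 in line 17_10, and its control libraries ranged from 82.28 to 2212 (limma adjusted p = 0.25).

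Of the features with EPlHVUG identifiers, 134 were tested and 0 were called by limma, and 2 had an unadjusted p below 0.05. By edgeR and DESeq2 0 were called as well, with 20 and 21 at an unadjusted p below 0.05. They took 7.46% of the normalized counts in replicate 2 of line 17_10, and between 0.366 and 0.559% in the 5 other libraries. A difference between the lines in this share was not detectable (exact two-sided permutation p = 0.9, where 3 against 3 libraries cannot go below 0.1).

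Stage 59 gave a second look at the same lines in libraries that the stage 49 comparison did not use, apart from the shared estimate of the spread. There, 76 of 19292 features differed between line 17_10 and line 5.8 (0.394%, limma), 20 higher (0.104%) and 56 lower (0.29%). The features called at both stages numbered 50, all in the same direction, which is 57.5% of the 87 and 65.8% of the 76. Without replicate 2 of line 5.8 at stage 49 there were 53. Without replicate 1 of line 5.8 at stage 59 the count at that stage was 1382, and 61 features were then called at both. Of the 59 lower features 41 were called again, and of the 28 higher ones 9. The sign was the same in all 55 lower features tested at stage 59 and in 24 of 26 higher ones, against 58.8% of the 18427 features tested at both stages. The libraries of the lines did not overlap at stage 59, in the direction of stage 49, in 54 of the 59 and 21 of the 28, against 12.4% of all features in either direction. Across the 81 called features tested at both stages the log2 fold changes correlated at r = 0.95, and across all 18427 at 0.36. Features are not independent replicates, and the 81 were chosen by their size at stage 49. They also had to pass the filter at stage 59, which a feature nearly silent in line 17_10 does only if line 5.8 is high. The lower features that missed it were MLOC_30349, MLOC_35517, MLOC_46848 and MLOC_7013. Their means in line 5.8 had come to 10.7, 7.943, 5.03 and 0 normalized counts, so the shared sign and the correlation leave them out.

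**Figure D3:**
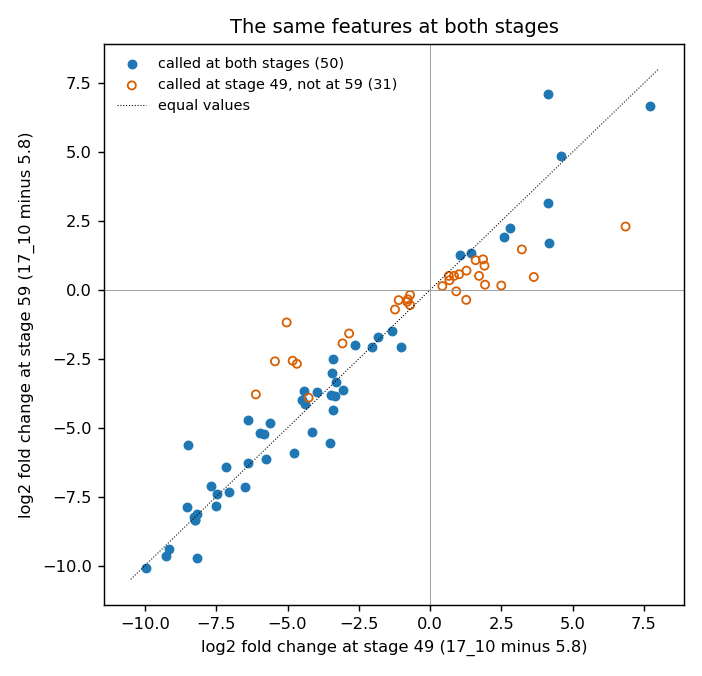
Log2 fold change of line 17_10 over line 5.8 at stage 49 (x axis) and at stage 59 (y axis) for the 81 called features tested at both stages, with a dotted line at equal values. The 50 features called at both stages (filled) keep their direction. Some lie well off the dotted line, such as MLOC_60586 (4.13 and 7.12) and MLOC_28102 (-8.48 and -5.62). Most of the higher features called at stage 49 alone (open) lie between the dotted line and 0.

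All 13 features that were nearly silent in line 17_10 and expressed in the control were called again at stage 59. None then had a mean above 2.34 normalized counts in line 17_10, and all 13 had at least 50 in line 5.8. The control kept a mean of at least 50 at stage 59 in all but MLOC_12283. In that feature the control mean was 134.8 at stage 49 and 6.817 at stage 59, where line 5.8 stood at 51.26. MLOC_312, for example, stood at 0, 2.055 and 0 in line 17_10 and at 1750, 1492 and 1497 in line 5.8. The few reads lay mainly in 1 library of line 17_10. Replicate 2, with 78121108 reads in all, had a read in 12 of the 13 features. Replicates 1 and 3, with 24459652 and 37151076 reads, had one in 1 each. At stage 49 the libraries of line 17_10 held 59895875, 74202137 and 58019756 reads. Replicate 2 of stage 59 also held 0.6849 and 2.055 normalized counts of MLOC_35134 and MLOC_75680, which had 0 reads in the control at both stages. The source of these reads was not tested. MLOC_26287 had 0 reads in line 17_10 at both stages and 171 normalized counts in line 5.8 at stage 59.

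Of the 19 features expressed in line 5.8 alone, 18 were tested at stage 59 and 12 were called again. In 18 of the 19 the libraries of the lines did not overlap. A feature that stays nearly silent in line 17_10 passes the filter at stage 59 only if line 5.8 is high. Counts over the tested features alone therefore favour those that kept the difference. Over the 19, the stage 59 mean was still below 10 normalized counts in line 17_10 in 14, and at least 50 in line 5.8 in 15. MLOC_33151, for example, stood at means of 16.31 in line 17_10 and 42.65 in line 5.8 (limma adjusted p = 0.47). MLOC_497 reached 1372, 1540 and 1811 normalized counts in line 5.8 at stage 59, against 0, 5.479 and 0 in line 17_10 (limma adjusted p = 9.4e-07). The control stayed at or below a mean of 11.6 in all 19 at that stage. MLOC_30349, the 1 feature not tested, had a mean of 62.77 in line 5.8 at stage 49 and 10.7 at stage 59. Its libraries overlapped at stage 59, at 0.6758, 27.66 and 3.774 in line 5.8 and 0, 0 and 1.436 in line 17_10.

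Features higher in line 17_10 were called again less evenly. MLOC_63821 kept its layout, at 25.01, 44.95 and 33.96 normalized counts in line 5.8 and 5313, 3286 and 2637 in line 17_10 (limma adjusted p = 1.7e-06, log2 fold change 6.69 with an SE of 0.51). MLOC_60586 stood at 2.703, 1.729 and 0 in line 5.8 and 312.8, 269.8 and 318.9 in line 17_10 (limma adjusted p = 5.5e-07). MLOC_8115 had 113.5, 95.09 and 51.57 in line 5.8 and 395.5, 934.8 and 186.7 in line 17_10, a log2 fold change of 2.3 that was not called (limma adjusted p = 0.25). MLOC_16596 stood at 343.2 and 482.6 in lines 5.8 and 17_10 (limma adjusted p = 0.86).

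**Figure D4:**
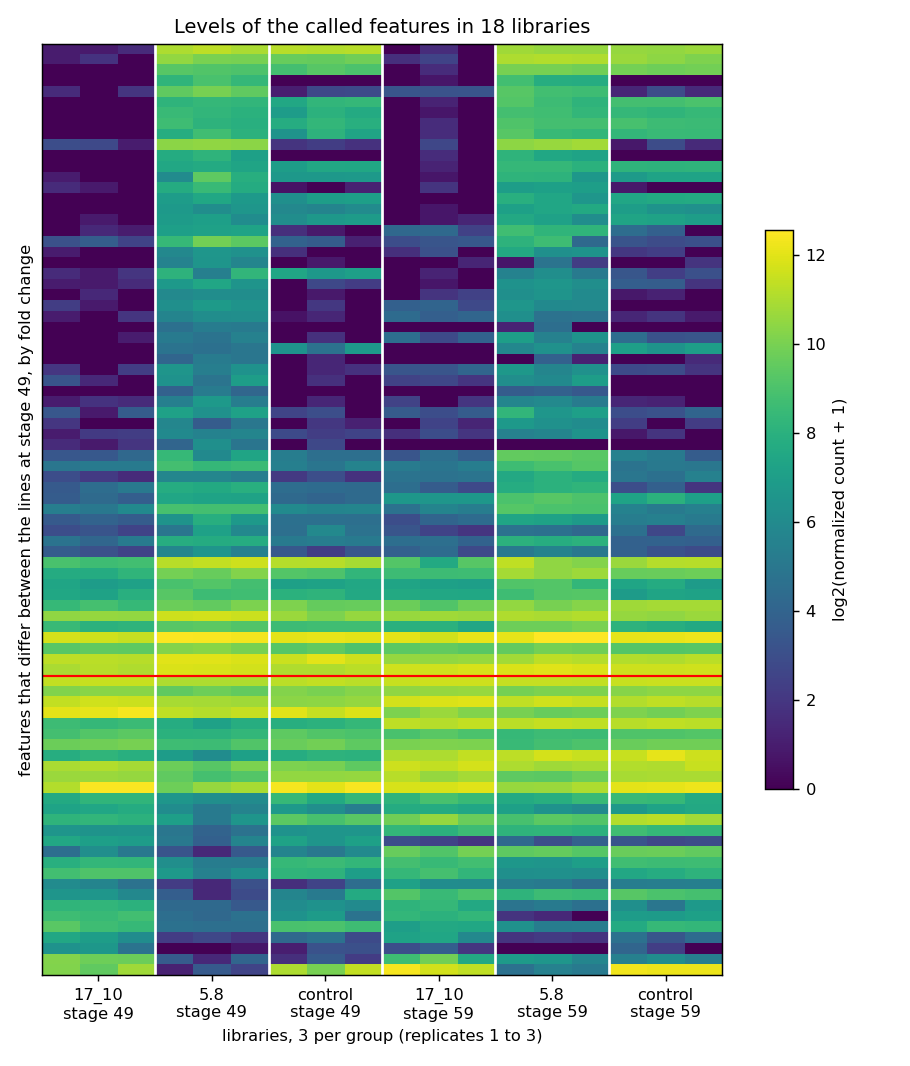
Levels of the 87 called features as log2(normalized count + 1) in all 18 libraries, 3 per group and ordered by replicate within it. Rows run from the largest fall in line 17_10 at the top to the largest rise at the bottom, with a red line between the 59 lower and the 28 higher features. The dark cells of line 17_10 in the upper rows recur at stage 59. Of the 33 on/off rows above the red line, the control mean at stage 49 was 50 normalized counts or more in 13 and below 10 in 19.

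The stage by line interaction asks whether the difference between the lines itself changed with stage. By limma 0 of 20486 features passed, with a smallest adjusted p of 0.52, and 1087 (5.31%) had an unadjusted p below 0.05. edgeR gave 0 and DESeq2 gave 14, and by limma there were 2 without replicate 3 of line 5.8 at stage 49 and 1 without replicate 3 of line 17_10 at stage 59. No difference between the stages can therefore be stated for MLOC_8115 (log2 interaction -4.56, limma adjusted p = 0.57), for MLOC_38010 (-2.46, limma adjusted p = 0.52) or for MLOC_16596 (-3.17, limma adjusted p = 0.75). Among the 87 features called at stage 49, 27 had an unadjusted p by limma below 0.05 for the interaction. The 87 were selected on their difference at stage 49, so this count is not free of that choice.

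The change over heading in the control was set beside the called features. It shares no library with the comparison of the lines, apart from the shared estimate of the spread. Of the 28 features higher in line 17_10, 27 were tested over heading, and 13 rose and 2 fell from stage 49 to 59 in the control. Of the 59 lower features 34 were tested, and 5 rose and 6 fell. Over all features tested, 22.5% rose and 23.2% fell (limma adjusted p below 0.05). Of the 13 rising features 1 was called between the lines at stage 59. MLOC_43028, for example, rose in the control from a mean of 48.52 to 807.4 normalized counts. In line 5.8 it stood at 8.716, 1.767 and 10.53 at stage 49, and in line 17_10 at 22.18, 72.66 and 31.57 (limma adjusted p = 0.038). At stage 59 the lines stood at 684.4 and 783.3.

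A stage index was computed per library, as the mean log2 level of the 100 features that rose most in the control minus that of the 100 that fell most. It was -7.93, -7.75 and -8.36 in line 17_10, -5.87, -2.78 and -7.26 in line 5.8 and -6.84, -8.01 and -7.62 in the control. The control at stage 59 lay between 8.77 and 9.96. The lines did not overlap, with line 17_10 lower by a mean of 2.72 (difference -2.72, exact two-sided permutation p = 0.1, the smallest that 3 against 3 libraries allow). Without replicate 2 of line 5.8 the difference was -1.45 (exact two-sided permutation p = 0.1, the smallest for 3 against 2 libraries). With 500 features each way the difference was -0.67 (exact permutation p = 0.3), and -0.25 without that library (exact permutation p = 0.5). The 100 rising features averaged 2.02, 1.71 and 1.43 on the log2 scale in line 17_10 and 3.27, 2.78 and 2.94 in line 5.8. The 100 falling features averaged 9.95, 9.46 and 9.8, against 9.14, 5.56 and 10.2, so replicate 2 of line 5.8 was the lowest in them by a wide margin. The part of the stage index and of that library in the called differences was not tested.

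**Figure D5:**
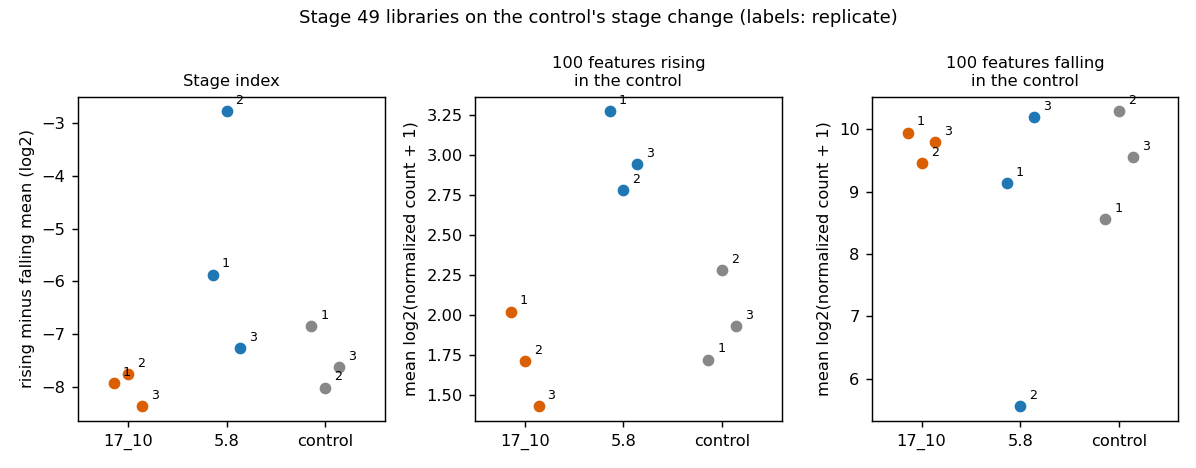
Stage index of the 9 libraries of stage 49 (left), mean log2(normalized count + 1) of the 100 features that rose most over heading in the control (middle) and of the 100 that fell most (right). Points are libraries of line 17_10 (orange), line 5.8 (blue) and the control (grey), labelled by replicate, and replicate 2 of line 5.8 lies apart at -2.78 in the left panel and 5.56 in the right.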

How the data were processed

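Stranded mRNA libraries were made from 3 µg of total RNA of whole spikes, per the labels' protocols. The authors deposited signal values, read counts scaled by DESeq size factors, so levels are relative to the rest of each library. STAR 2.4.2a, Subread 1.5.2 and DESeq2 stand in the submitters' processing notes, without roles. Build, annotation and strand setting were not given in the sources used here, so reads of near-identical or overlapping genes may be split or lost. In every library 100% of values were whole multiples of its smallest value (tolerance 0.001), which gave back the reads. Floors (3 reads) and intervals (95%) cover counting error only.

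Features with at least 10 normalized counts in 3 or more of the 6 libraries were tested on log2(value + 1), which understates folds of low features. All 18 libraries entered 1 fit of group means (limma 3.58.1, R 4.3.3, trended moderation, two-sided, Benjamini-Hochberg over all features tested, threshold 0.05), checked on simulated data. Of changes planted in features with a mean of at least 50, the check recovered 50% at 2-fold, 76% at 4-fold and 98% at 16-fold. There were 6 false calls. The simulated data held no change between stages and no library that stood apart, unlike the real data. Other comparisons were filtered on their own libraries. Alternatives included edgeR 4.0.16 (quasi-likelihood) and DESeq2 1.42.0 on recovered reads. The chi-square per feature between libraries of a line was at least 43.2, so none was a copy. P-values measure the spread between these libraries.

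Named features were the 8 largest folds in each direction and the 4 highest means (called, mean of at least 50 in the higher line, no overlap), the 3 smallest folds called, the 3 largest not called (mean of at least 50) and any EPlHVUG feature called, of which there were 0. On/off features are named as a class. A list of cytokinin genes could not be formed, since 0 identifiers matched. The comparison, lists and rules were chosen with earlier results of these data known.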

Additional observations from a re-analysis of the deposited data

Results flagged for a closer look

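MLOC_49738 drew attention because the lines lay in opposite order at the 2 stages. At stage 49 it had 182.2, 135.2 and 119.6 normalized counts in line 17_10 and 32.38, 13.25 and 49.13 in line 5.8 (log2 fold change 2.33, limma adjusted p = 0.045). At stage 59 it had 6.703, 4.794 and 2.873 in line 17_10 and 18.25, 6.916 and 13.84 in line 5.8, a difference of -1.24 in mean log2(value + 1). The libraries of the lines did not overlap at either stage, and this was the 1 feature of the 87 with such a switch. At stage 59 the gap was narrow, from 6.703 to 6.916, with 12 reads in line 17_10 and 42 in line 5.8. The control mean was 127.7 at stage 49 and 6.701 at stage 59. MLOC_49738 missed the filter for the test at stage 59, and the interaction did not pass (limma adjusted p = 0.52).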

How the results depend on the processing

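Of the counts recomputed under the alternatives, 191 stayed within 1.5 times the reported value or kept their direction and 34 moved further. No direction reversed. For the named features 450 of 494 repeats kept their status, 40 were weaker and 4 stronger. The 450 include repeats in which MLOC_62062, MLOC_68089 or MLOC_57346, not called in the main fit, stayed uncalled. With only the compared groups in the fit, 42 features differed at stage 49 (8 higher, 34 lower), 43 at stage 59 and 28 at both. Line 5.8 then differed from the control at stage 49 in 21 features and line 17_10 in 23, where the fit of all libraries gave 83 and 42. With the 9 libraries of stage 49 alone, 12 features were higher in line 17_10, and the lines differed from the control in 42 (line 5.8) and 26 (line 17_10). DESeq2 gave 353 (131 higher, 222 lower), 249 at stage 59, 82 at both, 14 for the interaction, and 308 and 75 for lines 5.8 and 17_10 against the control. Weights estimated per library gave 5774 (2611 higher, 3163 lower), 5764 at stage 59, 2108 at both, 1487 for the interaction, 61 on/off features, and 9779 and 5668 against the control. The estimate of the weights stopped before it converged, at 80.3 for control replicate 1 of stage 49 and 0.0848 for replicate 2 of line 5.8.

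Leaving out 1 library at a time gave 65 to 127 features at stage 49, 17 to 62 higher and 48 to 65 lower, 57 to 1382 at stage 59, 44 to 61 at both, 0 to 2 for the interaction, 33 to 42 on/off features, 10295 to 12808 with an interval within 2-fold, a difference of -3.69 to -1.45 in stage index (added after seeing the data), and 63 to 756 (line 5.8) and 28 to 42 (line 17_10) against the control. The 756 came without control replicate 2. Same-numbered libraries of the lines did not deviate together (correlations 0.04, 0 and -0.24), and the replicate block gave 83 features at stage 49, 63 at stage 59 and 46 at both. The fit within 1 stage could not give the interaction, and edgeR gives no interval, so these were not run. Except where said, the cause of a moved count was not tested.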
